A study of Mus musculus with 4 samples.

Results

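The epidermal genes described here are 8 of the 235 named genes that the study's tables hold: the keratin genes Krt5, Krt14, Krt15 and Krt1, the desmosome genes Perp and Ppl, and Sfn and Trim29. They were chosen by name, from earlier results that showed them higher in 1 library, so the direction of that difference is a description and carries no test. RNA was sequenced from testes of E13.5 mouse embryos of the CD1 strain, wild type, with the mesonephros removed. There were 4 libraries, 1 per group, all of the same strain, genotype and stage: Control (treatment labelled none, named EtOH inside the tables), ACE+ACE (acetaminophen), ASP+ACE (aspirin with acetaminophen) and IBU+ACE (ibuprofen with acetaminophen). The sources used here do not state doses, days of exposure or the number of embryos behind a library. Since each group is 1 library, the values compare libraries rather than conditions, and the spread between replicates is unknown. In RNA from whole tissue, more cells of a type and more RNA per cell cannot be told apart.

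Keratins are the intermediate filament proteins of epithelial cells, and each filament is built from pairs of a type I and a type II keratin. In skin and other stratified epithelia the dividing basal cells make the type II keratin Krt5 with the type I keratins Krt14 and Krt15, and cells that leave the basal layer switch to Krt1 and Krt10. The transcription factor p63 (Trp63) directs this programme, and desmosomes anchor the filaments at the cell surface. The fetal testis holds no stratified epithelium; the keratins known from its epithelial cells are the simple ones, Krt8, Krt18 and Krt19.

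The sequence before a gene's start is where factors such as p63 may bind, so such sequences are shown first. The genes were picked for being higher in IBU+ACE, so that shared direction comes from the choice. Whether they share a regulator was not tested. A promoter entry of RefSeq (GRCm38.p6) was found for 3 of the 8 genes, Krt5, Sfn and Krt14; that of Krt14 begins at a start inside the gene and is not printed. The 250 bases before the start are given for Krt5 (chr15:101712906-101713155, minus strand), the gene with the highest level in IBU+ACE, and for Sfn (chr4:133602169-133602418, minus strand), a textbook target of the p53 family. Capitals mark a match to the p53 family half-site.
Krt5: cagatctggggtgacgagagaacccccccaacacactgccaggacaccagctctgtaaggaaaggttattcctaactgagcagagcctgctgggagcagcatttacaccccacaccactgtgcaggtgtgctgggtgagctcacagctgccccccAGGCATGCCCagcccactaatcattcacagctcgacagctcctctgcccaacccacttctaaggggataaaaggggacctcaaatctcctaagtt
Sfn: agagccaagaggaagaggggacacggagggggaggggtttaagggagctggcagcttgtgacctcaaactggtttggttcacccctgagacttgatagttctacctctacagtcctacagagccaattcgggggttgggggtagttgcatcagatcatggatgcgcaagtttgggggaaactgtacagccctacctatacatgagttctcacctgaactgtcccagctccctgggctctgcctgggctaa
The half-site match in Krt5 covers bases 95 to 86 before the start, and none was found in these windows of Sfn and Krt14. Of 32851 promoter windows of the same length, 7.13% held such a match on either strand. The TATA box (TATAAA) and an AP-2 motif (GCCNNNGGC), searched on both strands, were in none of the 3 windows and in 12.4% and 13.7% of all windows. Only these letters were searched, so a TATA box spelled otherwise would be missed. The Krt14 window lies inside the gene, so its lack of matches does not describe the sequence before the annotated start of Krt14. A match is a run of letters, not a site shown to be bound.

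Among the values given, all 8 genes had their highest level in the IBU+ACE library. That library had a median of 3.65 FPKM over the 122 transcripts that have all 4 values, where the others had medians from 0.818 to 1.06 FPKM. A transcript has an IBU+ACE value only if it was called in a comparison with that library. Most such calls were higher in IBU+ACE, so the choice of transcripts itself favours this gap. The levels, as the authors deposited them, are taken to be in FPKM, fragments scaled to transcript length and to the mapped total, so that they can be compared between genes. The tables gave 29 of the 32 possible values. The other 3, Krt1 in Control and ASP+ACE and Sfn in Control, belong to comparisons in which the gene has no row, and a missing row means no call, not equal levels. The number of reads behind each value is unknown, and at levels under 1 FPKM it may be small.

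The type II basal keratin Krt5 (chromosome 15, 101707070 to 101712891, minus strand, 9 exons) stood at 7.35 FPKM in IBU+ACE, against 1.27 in Control, 0.818 in ACE+ACE and 1.003 in ASP+ACE. Its IBU+ACE level was 5.79 times the highest of the other libraries, which differed among themselves by 1.55 times. It had the widest gap of the 8 genes. The deposited locus also covers the predicted gene Gm44323, and 7.77% of the 75-base stretches of the Krt5 transcript, the length of a read, also occur in transcripts of Gm44323, Gm5414, Gm5478, Krt6a or Krt6b, so part of its value may belong to them.

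The type I basal keratin Krt14 (chromosome 11, 100203162 to 100210542, minus strand, 8 exons) stood at 4.29 FPKM in IBU+ACE, against 1.62 in Control, 1.35 in ACE+ACE and 1.11 in ASP+ACE. IBU+ACE was 2.65 times Control, the highest of the other libraries. Its assembled locus runs 2994 bases past the annotated 5′ end of the gene, and 5.91% of its 75-base stretches also occur in Krt16.

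Krt15 (chromosome 11, 100131758 to 100135928, minus strand, 8 exons), a type I keratin of basal and stem-like epidermal cells, stood at 2.21 FPKM in IBU+ACE, against 0.658 in Control, 0.507 in ACE+ACE and 0.535 in ASP+ACE. IBU+ACE was 3.37 times the highest of the other libraries, Control. No 75-base stretch of Krt15 occurs in the annotated transcripts of another gene.

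Krt1 (chromosome 15, 101845428 to 101850786, minus strand, 9 exons) is not a basal keratin but the type II keratin of differentiating layers. It stood at 0.123 FPKM in ACE+ACE and 0.543 in IBU+ACE, a ratio of 4.42, and was the lowest of the 8 in both libraries. Its partner Krt10 has no row in any table.

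**Figure D1:**
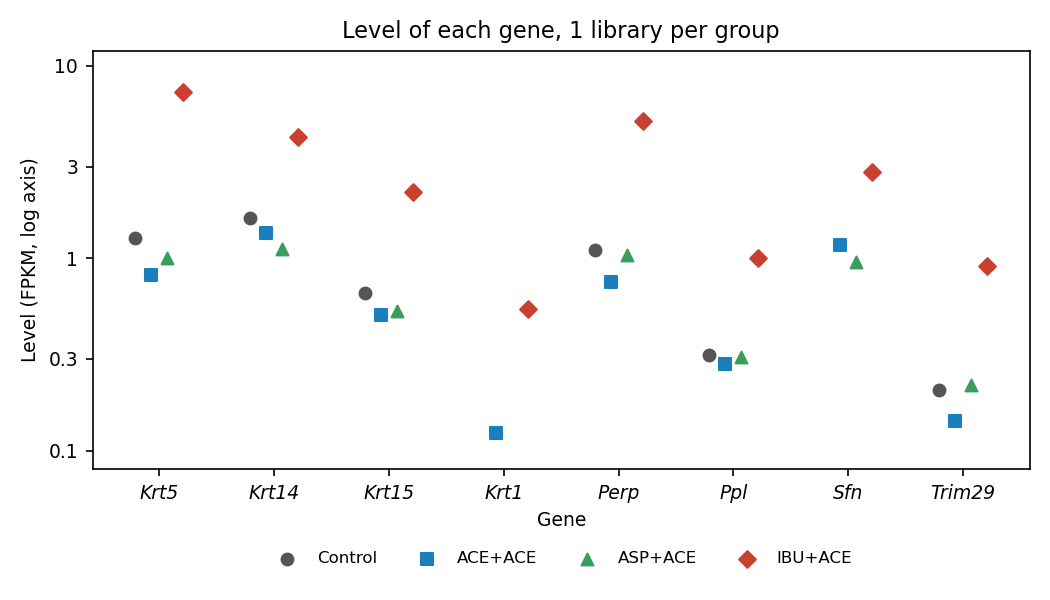
Level of each of the 8 genes in FPKM (vertical log axis) in the 4 libraries, with 1 point per library; values absent from the tables have no point. For every gene the IBU+ACE point, from 0.543 FPKM for Krt1 to 7.35 for Krt5, lies above all other points of that gene.

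Perp (chromosome 10, 18845071 to 18857073, plus strand, 3 exons), a membrane protein of desmosomes and a target of p63 and p53, stood at 5.16 FPKM in IBU+ACE, against 1.11 in Control, 0.749 in ACE+ACE and 1.04 in ASP+ACE. Its IBU+ACE level was 4.67 times that of Control, and it was the second of the 8 genes by level there, after Krt5.

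Ppl (chromosome 16, 5086291 to 5132481, minus strand, 22 exons) encodes periplakin, which links keratin filaments to the cell border. It stood at 1.002 FPKM in IBU+ACE, against 0.315 in Control, 0.282 in ACE+ACE and 0.306 in ASP+ACE. The other 3 values differed among themselves by 1.12 times and IBU+ACE was 3.18 times the highest of them.

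Sfn (chromosome 4, 133600556 to 133602168, minus strand, 1 exon) encodes stratifin, an adaptor protein of keratinocytes that restrains the cell cycle. It stood at 2.81 FPKM in IBU+ACE, against 1.17 in ACE+ACE and 0.954 in ASP+ACE. Its IBU+ACE level was 2.40 times that of ACE+ACE, the smallest gap of the 8 genes over the values given. For Krt1, whose Control and ASP+ACE levels are unknown, the gap rests on ACE+ACE alone. A share of 7.41% of its 75-base stretches also occurs in Gm5279 or Gm7850.

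Trim29 (chromosome 9, 43310763 to 43336125, plus strand, 9 exons), a tripartite-motif protein of basal cells in stratified epithelia, stood at 0.917 FPKM in IBU+ACE, against 0.205 in Control, 0.143 in ACE+ACE and 0.220 in ASP+ACE. IBU+ACE was 4.16 times ASP+ACE, the highest of the other libraries. Krt1, Perp, Ppl and Trim29, like Krt15, share no 75-base stretch with another annotated gene.

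The comparison of Control with IBU+ACE shows the epidermal genes between the control library and the library labelled ibuprofen with acetaminophen. The authors called 6 of the 8 genes, all higher in IBU+ACE: Krt5, Krt14, Krt15, Perp, Ppl and Trim29. Of the 382 transcripts in any of the 6 tables, 39.5% were called higher in this comparison; since the genes were picked for this difference, nothing is read from the count. That share is over transcripts called somewhere, because the tables hold called rows alone, and every call in the authors' deposited tables has the same q-value of 0.0310. The 6 genes had a median log2 ratio (IBU+ACE over Control) of 1.96, and single genes ran from 1.41 for Krt14 to 2.53 for Krt5. All 186 transcripts with both values had a median of 1.04, and the 127 called higher with a finite log2 fold change had a median of 1.71 in the authors' deposited table. By that fold change Krt5 ranked 27, Perp 32, Trim29 34, Krt15 58, Ppl 66 and Krt14 77 of the 127. The epidermal genes were thus spread over the upper and middle part of the transcripts that rose, not at its top. With 1 FPKM added to each level, 3 of the 6 kept a log2 ratio of at least 1 (Krt5 at 1.88, Perp at 1.55, Krt14 at 1.01), and Trim29 went from 2.16 to 0.67 and Ppl from 1.67 to 0.61. No call would pass a q of 0.01, and dividing each library by its median over the 122 transcripts with all 4 values left a median log2 ratio of 0.17 for the 6 genes, although those transcripts were themselves chosen by being called.

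Against ACE+ACE, the acetaminophen library, all 8 genes were called higher in IBU+ACE, beside 54.2% of the 382 transcripts. The ratios of IBU+ACE over ACE+ACE were 8.98 for Krt5, 6.89 for Perp, 6.41 for Trim29, 4.42 for Krt1, 4.37 for Krt15, 3.56 for Ppl, 3.17 for Krt14 and 2.40 for Sfn. The median log2 ratio was 2.14, beside 1.59 over the 219 transcripts with both values. Against ASP+ACE, the aspirin with acetaminophen library, 7 of the 8 were called higher, all but Krt1, beside 41.9% of the 382 transcripts. The ratios of IBU+ACE over ASP+ACE were 7.32 for Krt5, 4.96 for Perp, 4.16 for Trim29, 4.14 for Krt15, 3.85 for Krt14, 3.28 for Ppl and 2.95 for Sfn. The median log2 ratio was 2.05, beside 1.58 over 184 transcripts. These comparisons and that with Control share the IBU+ACE library, so the shared direction is no independent support. With 1 FPKM added, 4 of the 8 genes against ACE+ACE and 4 of the 7 against ASP+ACE kept a log2 ratio of at least 1.

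**Figure D2:**
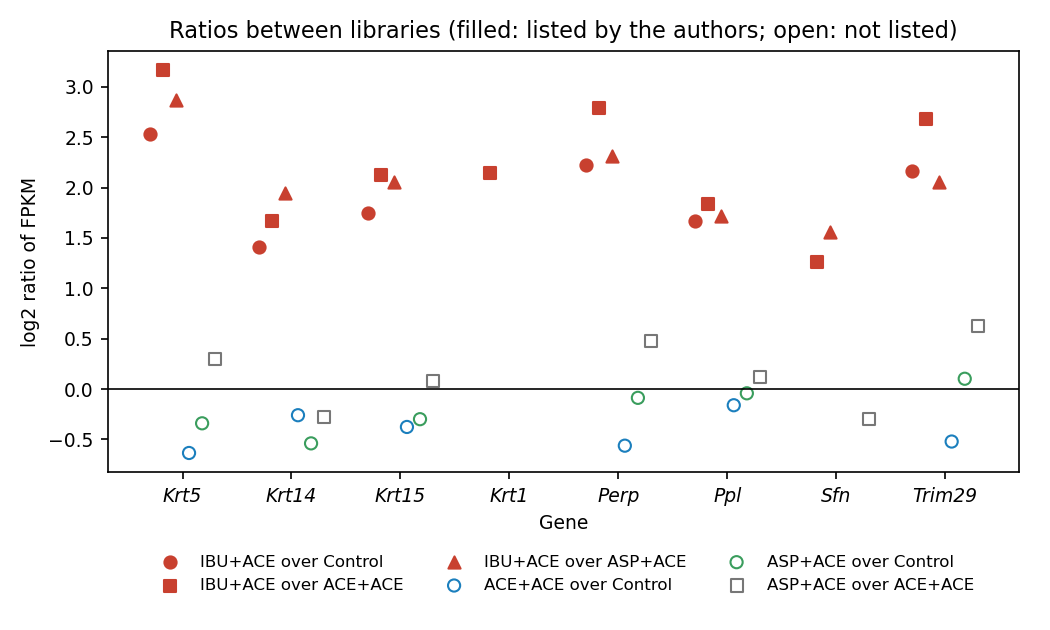
log2 ratio of FPKM between each pair of libraries for the 8 genes; filled points are pairs called in the authors' deposited tables and open points are pairs computed from values given in other tables, which were not called. The filled points, IBU+ACE over each other library, lie between 1.26 and 3.17, and the open points between -0.63 and 0.62.

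Among Control, ACE+ACE and ASP+ACE none of the 8 genes was called, where 17.5% of the 382 transcripts were called between Control and ACE+ACE, 11.5% between Control and ASP+ACE and 6.28% between ACE+ACE and ASP+ACE. Values from the other tables still allow the ratios to be given. The log2 ratio of ACE+ACE over Control was below 0 for 6 of the 6 genes with both values, from -0.63 for Krt5 to -0.16 for Ppl, with a median of -0.45; over 160 transcripts with both values the median was -0.34. The log2 ratio of ASP+ACE over Control was below 0 for 5 of 6 genes, with a median of -0.19, beside -0.21 over 132 transcripts; Trim29, at 0.10, was the exception. The log2 ratio of ASP+ACE over ACE+ACE was above 0 for 5 of 7 genes, with a median of 0.12, beside 0.01 over 148 transcripts; Krt14 (-0.28) and Sfn (-0.30) were below 0. With no call and 1 library each, these small differences have no check.

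Summed over the 6 genes with all 4 values, the level was 20.9 FPKM in IBU+ACE, against 5.17 in Control, 3.85 in ACE+ACE and 4.22 in ASP+ACE. The balance between the genes also differed between libraries. Krt5 made up 35.1% of the sum in IBU+ACE, against 24.6% in Control, 21.3% in ACE+ACE and 23.8% in ASP+ACE. Against its type I partners Krt14 and Krt15 added together, Krt5 had a ratio of 1.13 in IBU+ACE, against 0.558 in Control, 0.440 in ACE+ACE and 0.609 in ASP+ACE. The basal type II keratin was therefore below the type I sum in 3 libraries and above it in IBU+ACE. Between the type I genes the ratio of Krt15 over Krt14 varied less, at 0.517 in IBU+ACE, against 0.406 in Control, 0.375 in ACE+ACE and 0.480 in ASP+ACE. Reads that Krt5 shares with Krt6a, Krt6b and the predicted genes named above, and that Krt14 shares with Krt16, could enter these ratios; their part was not tested.

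**Figure D3:**
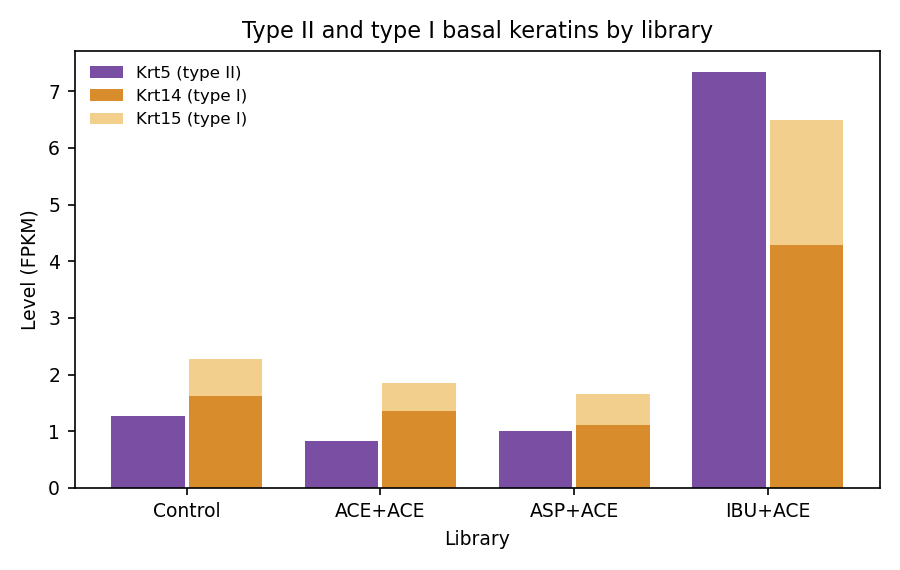
Level in FPKM of the type II keratin Krt5 and of the stacked type I keratins Krt14 and Krt15 in each of the 4 libraries, 1 library per pair of bars. Krt5 lies below the type I stack in Control, ACE+ACE and ASP+ACE and above it, at 7.35 against 6.50 FPKM, in IBU+ACE.

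Position sets the 4 keratins in pairs. Krt5 and Krt1 lie in the type II cluster on chromosome 15, 132527 bases apart with Krt71, Krt72, Krt73 and Krt2 between them, and Krt14 and Krt15 lie in the type I cluster on chromosome 11, 67233 bases apart with Krt19 and Krt9 between them. None of these 6 intervening keratin genes has a row in any table. The GENCODE M21 annotation holds 53 protein-coding genes with a Krt number, 26 on chromosome 15 and 27 on chromosome 11, and 4 of the 53 have a row, which are the 4 described here. The other 4 genes lie on 4 further chromosomes.

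Other genes of the epidermis were also looked for. The number of genes the authors tested is unknown, so the share of all genes that have a row cannot be given. From 59 epidermal and squamous epithelial genes, which include the 8, the tables hold 12; the 4 others are Cxcl14, Tfap2b, Barx2 and Wnt7b. Trp63, Krt10, Krt6a, Krt17, Grhl3 and Tfap2a are among the 47 with no row. Cxcl14, a chemokine of skin that mesenchyme also makes, stood at 12.9 FPKM in IBU+ACE, against 0.855 in Control, 0.447 in ACE+ACE and 0.386 in ASP+ACE. The transcription factor Tfap2b was called between ACE+ACE (0.0544 FPKM) and IBU+ACE (0.739 FPKM). Barx2, a homeobox factor, and Wnt7b, a Wnt ligand of limb ectoderm, were called between ASP+ACE and IBU+ACE, Barx2 from 0.227 to 1.003 FPKM and Wnt7b from 0.187 to 1.03 FPKM. In this list 7 genes rose in IBU+ACE against Control, where 39.5% of the 382 transcripts were called higher, 10 against ACE+ACE (54.2%) and 10 against ASP+ACE (41.9%), and 0 fell. All 382 transcripts have a row, so these shares go beside the 12 list genes with a row, not the 59. Of the genes that rose, 6, 8 and 7 are the genes picked for this difference, which leaves 1, 2 and 3 others, so the counts are no independent evidence of a direction.

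Among genes of the adhesion machinery that joins keratinocytes, Perp and Ppl alone have a row. For the genes without a row, here and below, no call was made and the level is unknown. The other 24 of 26 desmosome, hemidesmosome and basement membrane genes, among them Dsp, Jup, Pkp1, Dsg3, Itgb4 and Col17a1, have no row. Among genes of simple and general epithelium, Krt8, Krt18, Krt19, Cdh1 and Epcam have no row. The claudin gene Cldn4, a tight junction component, stood at 2.21 FPKM in IBU+ACE, against 0.820 in ACE+ACE and 0.825 in ASP+ACE and was called against both. Of 17 p53 and p63 target genes, 2 have a row, again Perp and Sfn, and Cdkn1a, Mdm2 and Ccng1 have none.

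Markers of some other tissues also moved in the IBU+ACE library. Of 40 limb, genital mesenchyme and cartilage genes 16 have a row. Of those 16, 15 rose and 0 fell in IBU+ACE against Control, led by level by Col2a1, Msx1, Col11a1 and Hoxd13. Of the 382 transcripts, which all have a row, 39.5% were called higher. The gene lists were written with earlier results of these data known, so nothing is read from the counts. The summed level of the 10 transcripts of that list with all 4 values was 102.0 FPKM in IBU+ACE, against 19.2 in Control, 17.7 in ACE+ACE and 14.5 in ASP+ACE; Evx2 was listed at 0 in ASP+ACE. The dermal genes Lum, Crabp1 and Ebf1, the 3 of 11 in their list with a row, rose against Control as well, beside the same 39.5%. Lum was not called against ASP+ACE. Crabp1 and Ebf1, which have all 4 values, summed to 18.2 FPKM in IBU+ACE, against 6.38 in Control, 4.97 in ACE+ACE and 5.48 in ASP+ACE. Xist, which is not a tissue marker but a long RNA transcribed from the inactive X chromosome, stood at 11.1 FPKM in IBU+ACE, against 0.954 in Control, 0.710 in ACE+ACE and 0.668 in ASP+ACE. The share of cells with an inactive X chromosome in each library was not tested. Of 23 testis genes 2 have a row, the Sertoli cell genes Cst9 and Sox9. They rose against Control, Sox9 from 5.98 to 10.04 FPKM, beside 39.5% of the 382 transcripts called higher. The other 21 have no row, so within this list the tissue label can be checked on Cst9 and Sox9 alone, and Sox9 is also a cartilage gene. Testis genes outside the list were not looked at here. Of 14 liver genes 8 have a row and 0 were called between Control and IBU+ACE. In that comparison 151 of the 382 transcripts were called higher and 34 lower. The 5 liver transcripts with all 4 values summed to 220.2 FPKM in IBU+ACE, against 208.9 in Control, 58.3 in ACE+ACE and 130.8 in ASP+ACE. Of 15 neural crest, nerve and melanocyte genes 1 has a row, Chgb, a protein of secretory granules, and it differed from Control in all 3 other libraries rather than in IBU+ACE alone. Its level was 0.719 FPKM in Control and fell to 0.0759 in IBU+ACE, 0.115 in ACE+ACE and 0.0809 in ASP+ACE, each of them called against Control. What these other tissues' markers, and Xist, have to do with the epidermal result was not tested.

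Other genes were ranked by how like their levels over the 4 libraries were to those of the epidermal genes. Of the other epithelial genes named above, only Cxcl14 has all 4 values and so could be ranked. It was not among the nearest 5, and nothing is read from the absence of the others. Likeness was the distance between log2 profiles, taken after adding 0.1 FPKM and subtracting each gene's mean over the libraries, from the mean profile of the 6 genes with all 4 values. Among 87 other named transcripts with all 4 values the 5 nearest were Twist1, a mesenchymal transcription factor, at 0.0939, the Wnt inhibitor Wif1 at 0.158, the transcription factor Ebf1 at 0.192, Chodl at 0.234 and the predicted gene Gm37024 at 0.260. Twist1 stood at 17.9 FPKM in IBU+ACE, against 5.20 in Control, 3.74 in ACE+ACE and 4.30 in ASP+ACE. The epidermal genes themselves lay between 0.152 (Krt15) and 0.696 (Krt5) from their own mean profile, and 36 of the 87 candidates lay nearer to it than Krt5. With 1 FPKM added in place of 0.1, 2 of these 5 genes, Chodl and Gm37024, stayed among the nearest 5. A profile over 4 libraries distinguishes few patterns, and having an IBU+ACE value required a call in a comparison with that library.

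**Figure D4:**
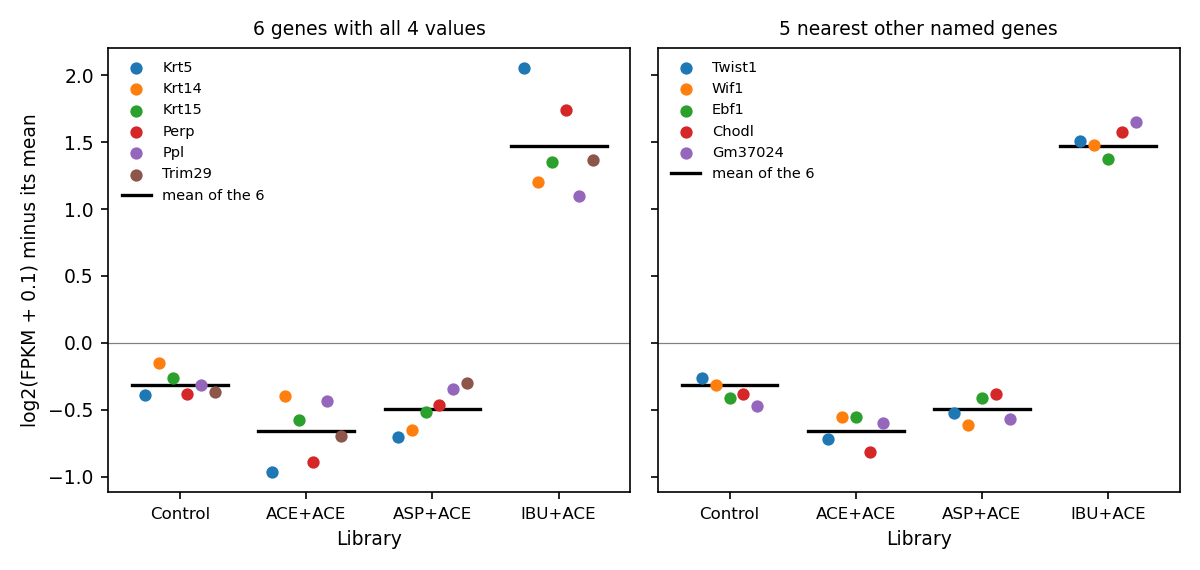
log2(FPKM + 0.1) minus its mean over the 4 libraries, for the 6 epidermal genes with all values (left) and the 5 nearest other named genes (right); black bars give the mean of the 6 genes in each library. In IBU+ACE the epidermal genes spread from 1.10 (Ppl) to 2.05 (Krt5), while the nearest genes lie from 1.38 (Ebf1) to 1.65 (Gm37024).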

How the data were processed

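RNA from E13.5 testes was measured in 4 libraries, 1 per group. Per the labels' protocols, ribosomal RNA was depleted and stranded paired reads of 75 nt were sequenced. The submitters' processing notes list the tools Cufflinks 2.2.1, TopHat2 2.1, Bowtie2 2.2.6, SAMtools 1.3, FastQC and bcl2fastq 2.17 and the build GRCm38, with no settings. The authors deposited 6 pairwise tables of assembled transcripts with values, log2 fold changes, p-values and q-values per the file headers, which name no unit for the values; FPKM is inferred from the layout. All 726 rows were marked significant with a p-value of 5e-05. Values of other isoforms of a gene are not used here.

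With Python 3.11.15 decimal commas were converted, each library's values were combined across tables (0 disagreed), and ratios were recomputed from them (within 1.09e-05 of the deposited log2). Figures used matplotlib 3.10.9. Reading and counting were tested on simulated data. Starts of loci were raised by 1 to count from 1 and compared with GENCODE M21, also GRCm38. Every value column was matched to a library, and EtOH was matched to Control as the name that remained. Depth per library is unknown, so no interval or floor is given.

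The 8 genes and the gene lists were chosen with earlier results of these data known. Named were the 8 genes, every gene of the epidermal, adhesion, epithelial and p53 or p63 lists with a row in any table (except an item that is not reported here), up to 4 genes per other list by IBU+ACE level among those in the table of Control with IBU+ACE, and the 5 nearest profiles. Genes named as having no row, and Xist, were chosen after the tables were seen. No test was run: 1 library per group allows none. Alternatives were added constants of 1 and 0.1 FPKM, a log2 threshold of 1, a level of 1 FPKM, a q of 0.01 and rescaling; 3 more were added after seeing the data.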

Additional observations from a re-analysis of the deposited data

How the results depend on the processing

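No ratio of the 40 computed for the 8 genes changed sign when 1 or 0.1 FPKM was added (0 of 80 alternatives). The median log2 ratio of IBU+ACE over Control, 1.96, became 0.98 with 1 FPKM added and 1.67 with 0.1 FPKM added. It became 0.17 when each library was divided by its median over the 122 transcripts with all 4 values. Those transcripts are themselves called ones, and their median level was 1.78 log2 units higher in IBU+ACE than in Control, so by construction that rescaling removes most of the difference.

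Every call fails a q of 0.01, since all rows have the same q of 0.0310, so 0 of the 8 genes and 0 listed epithelial genes were left in any comparison. With 1 FPKM added and a log2 ratio of at least 1 required, an alternative chosen after seeing the data, 3 of the 8 genes were left against Control, 4 against ACE+ACE and 4 against ASP+ACE, and 5, 6 and 6 genes of the 4 epithelial lists. With the rescaling and a log2 ratio of at least 1, also chosen after seeing the data, 0, 1 and 0 of the 8 genes and 1, 3 and 1 listed genes were left in the same order. Of the 5 nearest profiles 2 were shared with 1 FPKM added. No paired analysis was possible because each group holds 1 library. Reads behind each value are unknown, which limits levels under 1 FPKM most.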

Other observations

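Some other genes of lining epithelia were called as higher in IBU+ACE. They were chosen after their values were seen, so they are no independent evidence of a direction. Of the 382 transcripts, 39.5% were called higher in IBU+ACE against Control, 54.2% against ACE+ACE and 41.9% against ASP+ACE. Upk1a and Psca were not called against Control, and their Control levels are unknown. The uroplakin gene Upk1a, a membrane protein of the urothelium, stood at 1.02 FPKM in IBU+ACE, against 0.244 in ACE+ACE and 0.154 in ASP+ACE. Psca, a surface protein of several epithelia, was listed at 0 in ACE+ACE and ASP+ACE and at 0.308 FPKM in IBU+ACE. Gabrp, a GABA receptor subunit found in epithelial tissues, stood at 6.58 FPKM in IBU+ACE, against 0.724 in Control, 0.382 in ACE+ACE and 0.324 in ASP+ACE; Krt5 was at 7.35 FPKM in IBU+ACE.

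Against ASP+ACE alone, Msln (mesothelin, a marker of mesothelium) was called from 0.150 to 0.883 FPKM, Il1f9, an interleukin of keratinocytes, from 1.03 to 2.53 FPKM, and Aldh3b2 from 0.462 to 1.23 FPKM. Their values in Control and ACE+ACE were not read, since they have no row in those tables.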
